A study of Mus musculus with 17 samples.

Results

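The 10 genes described here encode peptides best known from neurons of the hypothalamus. They are Avp, Oxt, Hcrt, Pmch, Agrp, Ghrh, Cartpt, Trh, Crh and Gal, chosen by name out of 45147 features counted in mouse brain. RNA was sequenced from 6 libraries of mice that carry and overexpress HAR1A, a human long noncoding RNA gene, and from 11 libraries of normal mice, all on a C57BL/6 background. The labels do not state age, sex, the brain region taken, the promoter that drives the transgene or the number of founder lines. Nothing says whether each library came from a separate mouse, and p-values therefore reflect library-to-library spread, which may be technical. Groups follow the treatment label. The titles carry an N, whose meaning is not stated, in 8 of the 11 controls (not in controls 4, 6 and 8) and also in transgene 5, so the titles and the treatment label do not divide the libraries the same way. Libraries carry their group and a number in the order of deposition. All transgene libraries and controls 7, 8 and 11 were run on lane 4, 6 controls on lane 8, control 4 on lane 2 and control 6 on lane 6 of another flow cell. Assigned reads numbered 17067407 to 22642441 per library, and levels are given as CPM, the count scaled to the size of its library after TMM normalization.

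The hypothalamus sits at the base of the forebrain and holds many small clusters of neurons, the nuclei, each with its own peptides. Large (magnocellular) neurons of the paraventricular and supraoptic nuclei make vasopressin (Avp) and oxytocin (Oxt) and send axons to the posterior pituitary. Neurons of the lateral hypothalamus make orexin (Hcrt), which sustains wakefulness, or melanin-concentrating hormone (Pmch), which acts on feeding and sleep. The arcuate nucleus holds neurons that make the hunger signal Agrp, growth hormone-releasing hormone (Ghrh) or the CART peptide (Cartpt), and small paraventricular neurons make thyrotropin-releasing hormone (Trh) and corticotropin-releasing hormone (Crh), which drive the anterior pituitary. Galanin (Gal) is made in several hypothalamic nuclei. Cartpt, Trh, Crh and Gal are also made by neurons in other parts of the brain, whereas Hcrt and Pmch neurons are largely limited to the lateral hypothalamus and its surroundings.

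Avp and Oxt are shown first because they stood highest in the same libraries and are close copies of each other. Both lie on chromosome 2 of mm10, Oxt on the plus strand from 130576173 to 130577054 and Avp on the minus strand from 130580620 to 130582554, with 3565 bases between them and 3 exons each. The stretch of each GENCODE M21 transcript that codes for the hormone of 9 amino acids and the processing site after it is given below, with capitals at the 5 of 36 bases that differ.
Avp: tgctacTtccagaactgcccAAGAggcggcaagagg
Oxt: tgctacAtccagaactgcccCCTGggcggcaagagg
Further on, in the part that codes for neurophysin, the carrier protein of the precursor, the transcripts share a run of 127 identical bases, which is 22.0% of the Avp and 23.6% of the Oxt transcript.
Avp and Oxt, shared: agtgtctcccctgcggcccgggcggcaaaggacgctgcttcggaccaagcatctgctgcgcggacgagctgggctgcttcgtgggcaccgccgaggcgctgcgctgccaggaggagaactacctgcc
A read that lies wholly inside this run matches both genes, and the sources used here do not say how such reads were counted, so small counts of either gene in a library rich in the other are uncertain.

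The 250 bases before the RefSeq start (GRCm38.p6) are given for the 4 members that were high in 1 or 2 libraries, since they divide into a pair high together in transgene 1 and transgene 4 and a pair high in transgene 1. Of the 10 members, 8 were matched in the RefSeq promoter table. Capitals mark matches on either strand to 3 motifs. The promoter box that positions the start is spelled TATAAA. The core element bound by many nuclear receptors is spelled GGTCA. The cyclic AMP response element is spelled TGACGTCA. Read from the other strand, the first becomes TTTATA, the second becomes TGACC, and the third is the same. By their letters, matches to different motifs of these 3 cannot overlap.
Avp, chr2:130582589-130582838, minus strand: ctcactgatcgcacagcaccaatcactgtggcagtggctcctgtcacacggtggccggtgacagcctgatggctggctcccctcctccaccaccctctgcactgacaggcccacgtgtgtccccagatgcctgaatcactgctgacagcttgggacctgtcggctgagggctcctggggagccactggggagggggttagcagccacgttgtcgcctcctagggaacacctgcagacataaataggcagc
Oxt, chr2:130575919-130576168, plus strand: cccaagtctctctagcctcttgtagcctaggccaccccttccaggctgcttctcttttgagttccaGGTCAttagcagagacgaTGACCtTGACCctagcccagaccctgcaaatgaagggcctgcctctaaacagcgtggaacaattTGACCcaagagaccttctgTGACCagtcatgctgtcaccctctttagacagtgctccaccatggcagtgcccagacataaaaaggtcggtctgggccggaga
Hcrt, chr11:100762932-100763181, minus strand: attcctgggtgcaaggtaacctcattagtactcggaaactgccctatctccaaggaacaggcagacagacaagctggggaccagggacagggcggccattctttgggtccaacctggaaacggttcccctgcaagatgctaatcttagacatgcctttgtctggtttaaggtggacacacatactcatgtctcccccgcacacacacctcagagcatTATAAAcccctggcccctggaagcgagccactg
Pmch, chr10:88090822-88091071, plus strand: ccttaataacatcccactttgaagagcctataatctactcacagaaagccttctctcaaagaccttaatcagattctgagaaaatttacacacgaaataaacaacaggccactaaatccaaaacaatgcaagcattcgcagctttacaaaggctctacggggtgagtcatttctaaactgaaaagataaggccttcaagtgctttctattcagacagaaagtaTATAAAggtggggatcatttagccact
The Oxt window held 5 matches to GGTCA and the Avp, Hcrt and Pmch windows 0, while 35.2% of 32851 promoter windows of this length held at least 1. TATAAA was matched 33 bases before the start in Hcrt and 27 bases before it in Pmch, and 12.4% of windows held it. TGACGTCA was found in none of these 4 windows and in 1.5% of all windows. A match is a run of letters and not a shown binding site.

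The members fell into 4 kinds by the libraries that held them. Avp and Oxt were high in transgene 1 and transgene 4, and Hcrt and Pmch were high in transgene 1. Cartpt, Trh, Crh and Gal were found in every library, with at most 26.0% of a gene's summed CPM in any of them. Agrp and Ghrh stayed at 14 or fewer counts in each library. Oxt and Agrp also had counts in every library, down to 2 and 3. Members of different nuclei therefore did not share a single pattern: transgene 4 held the magnocellular peptides at high levels with Hcrt and Pmch at 4 and 5 counts.

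**Figure D1:**
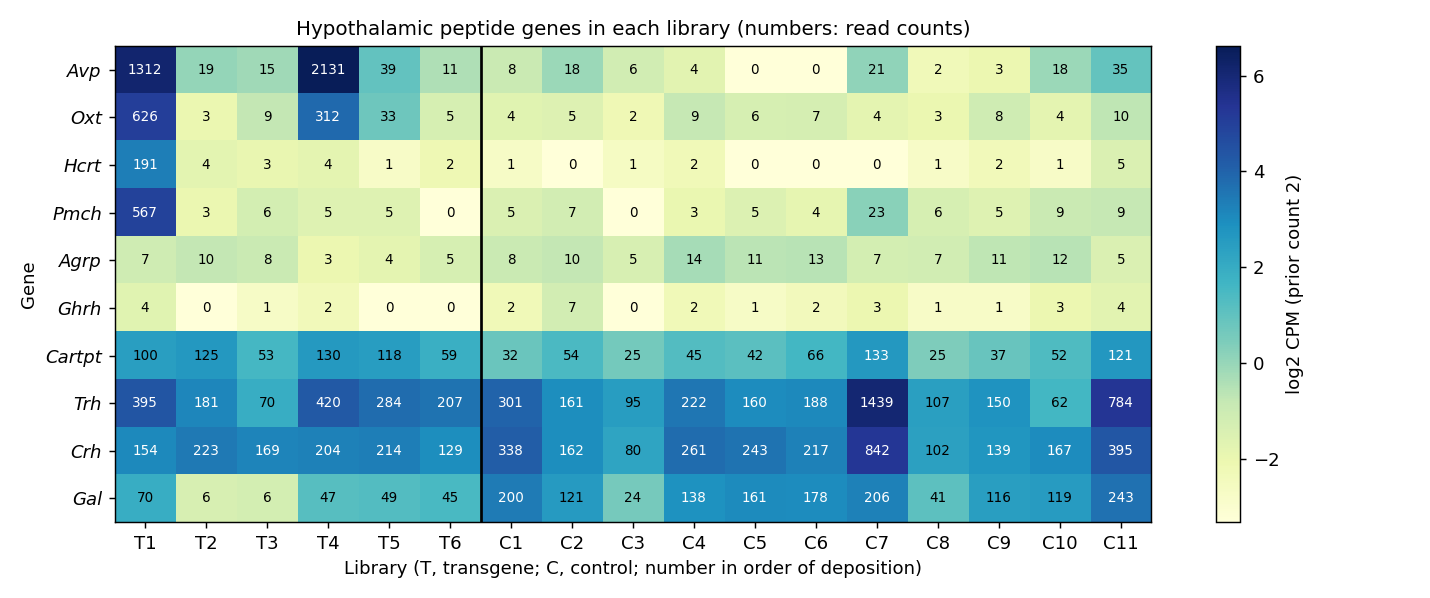
Levels of the 10 peptide genes (rows) in the 17 libraries (columns), coloured by log2 CPM with a prior count of 2 and labelled with the read count. The black line separates transgene libraries (T) from controls (C). Transgene 1 holds 1312 Avp, 626 Oxt, 191 Hcrt and 567 Pmch counts, and transgene 4 holds 2131 Avp and 312 Oxt counts with 4 Hcrt and 5 Pmch counts.

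Vasopressin RNA was concentrated in transgene 4 and transgene 1. Avp stood at 98.6 CPM in transgene 4, 69.7 in transgene 1, 1.83 in transgene 5, 0.925 in transgene 2, 0.791 in transgene 3 and 0.649 in transgene 6. The 11 controls ran from 0 through a median of 0.349 to 1.80 CPM, with 115 counts among them. The level in transgene 1 was 38.1 times that of the third library, transgene 5 lay just above the highest control (1.83 against 1.80 CPM), and transgene 2, 3 and 6 lay within the control range. Over all libraries Avp was higher in the transgene group by 5.79 ± 1.01 (SE) on the log2 scale (edgeR adjusted p = 0.00013). Without transgene 1 and transgene 4 the difference was 1.06 and was not called (edgeR adjusted p = 0.245), so the call rests on those libraries.

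Oxytocin RNA was high in the same pair of libraries in the opposite order. Oxt stood at 33.2 CPM in transgene 1, 14.4 in transgene 4, 1.55 in transgene 5, 0.474 in transgene 3, 0.295 in transgene 6 and 0.146 in transgene 2. In the controls it ran from 0.116 through a median of 0.237 to 0.515 CPM. Transgene 5 thus also lay above the highest control, on 33 counts. Oxt missed the filter on low counts over all libraries. With no filter, where 27.8% of features were called, its difference was 4.91 ± 0.79 (edgeR adjusted p = 5.52e-05), and 1.19 ± 0.47 without transgene 1 and transgene 4 (edgeR adjusted p = 0.0769).

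The mix of both hormones differed between these libraries. Avp made up 67.7% of the summed Avp and Oxt counts in transgene 1 (exact binomial 95% interval 65.6 to 69.8), 87.2% in transgene 4 (85.8 to 88.5) and 54.2% in transgene 5 (42.0 to 66.0). The intervals cover counting error only. The intervals of transgene 1 and transgene 4 do not overlap, and each is a single library.

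The lateral hypothalamic peptides were concentrated in transgene 1. Hcrt, on chromosome 11 from 100761069 to 100762931, stood at 10.1 CPM in transgene 1, 0.195 in transgene 2, 0.185 in transgene 4, 0.158 in transgene 3, 0.118 in transgene 6 and 0.0469 in transgene 5. The controls ran from 0 through a median of 0.0491 to 0.257 CPM, with 13 counts in all. Transgene 1 was 39.4 times the next library, control 11. A count of 0, found in 4 controls, allows at most 0.131 to 0.149 CPM in these libraries. Hcrt has 2 deposited transcript rows that share 346 bases. The row with 190 of the 191 counts in transgene 1 has 240 of its 586 bases alone. If reads over shared bases were set aside, Hcrt levels are too low in every library.

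Pmch, on chromosome 10 from 88091072 to 88092375, stood at 30.1 CPM in transgene 1 and 0.316 in transgene 3. Transgene 5, transgene 4 and transgene 2 followed at 0.235, 0.231 and 0.146 CPM, and transgene 6 had 0 counts. In the controls it ran from 0 through a median of 0.261 to 1.07 CPM. The highest control was control 7, with 23 counts, and transgene 1 was 28.2 times that level. The 5 other transgene libraries lay within the control range for both genes.

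Neither Hcrt nor Pmch passed the filter over all libraries. With no filter their log2 differences were 4.84 ± 0.99 (edgeR adjusted p = 0.000663) and 3.95 ± 0.95 (edgeR adjusted p = 0.00295). Without transgene 1 they were 1.21 ± 0.68 (edgeR adjusted p = 0.214) and -0.77 ± 0.61 (edgeR adjusted p = 0.384), and neither was called. The share of all Hcrt CPM held by transgene 1 was 88.2%, and that of Pmch 86.8%. Of 24337 features with at least 50 counts, 11 had a share in their top library at least as high as Hcrt, with Hcrt included. For Pmch the number was 13, with Pmch and Hcrt included.

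**Figure D2:**
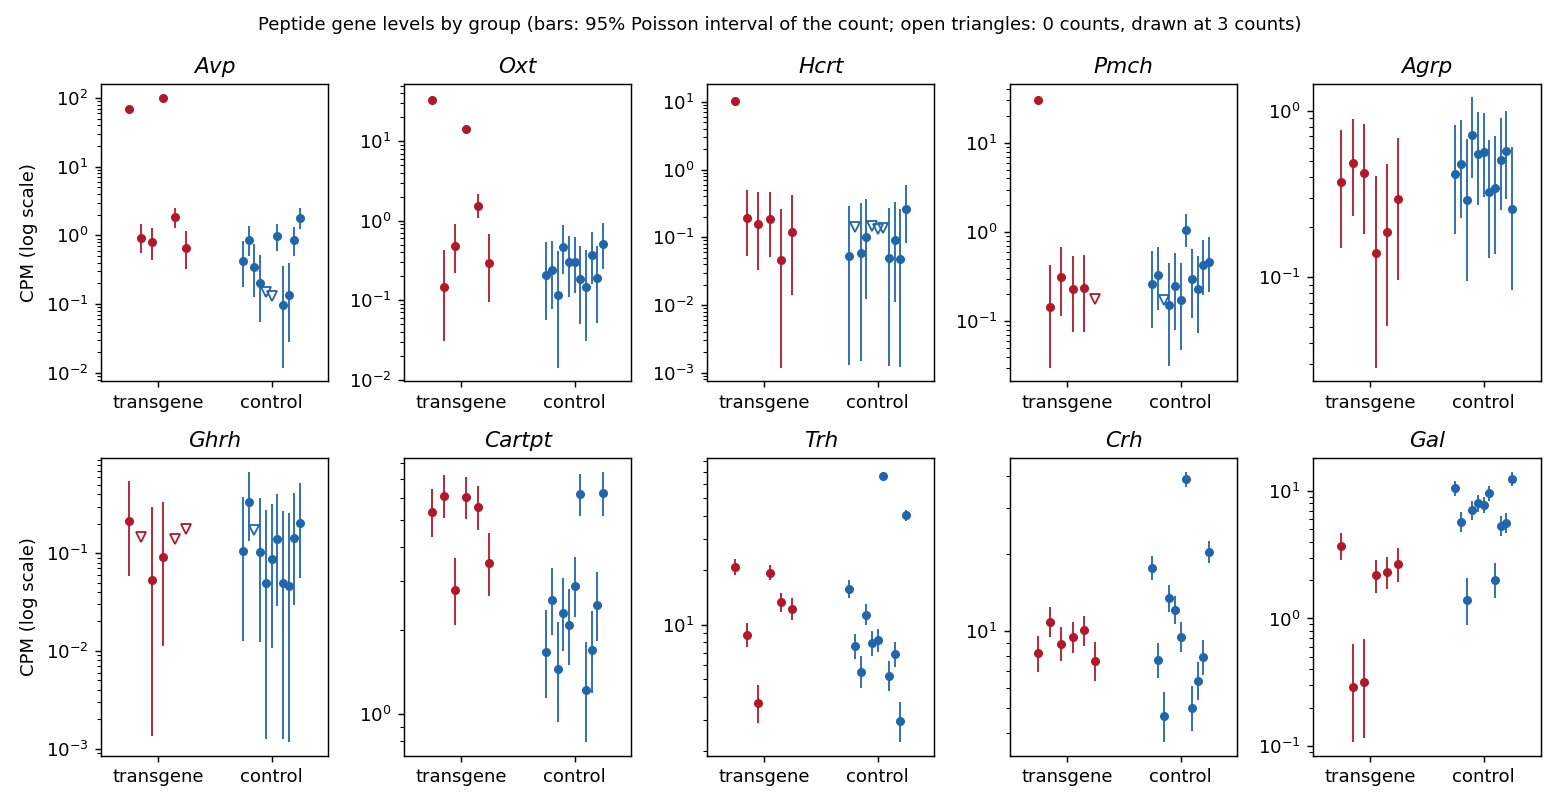
CPM of each peptide gene on a log scale, with a point per library, transgene in red and control in blue, in the order of library number. Bars are 95% Poisson intervals of the count, and open triangles mark 0 counts, drawn at the level of 3 counts. Avp and Oxt have 2 high transgene points, Hcrt and Pmch have 1, and in Trh and Crh the highest points are controls 7 and 11.

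The arcuate peptide genes Agrp and Ghrh could hardly be measured. Agrp, which encodes an antagonist of melanocortin receptors, had 3 to 10 counts in transgene and 5 to 14 in control libraries, and Ghrh had 0 to 4 and 0 to 7. Neither passed the filter over all libraries, and with no filter neither was called (edgeR adjusted p = 0.275 and 0.4). Each gene has 2 deposited transcript rows that share every coding base, 393 in Agrp and 309 in Ghrh. If reads over shared bases were set aside with the other reads that fell on several features, the peptide-coding sequence of these genes was not counted. Of the 661 exon bases of the shorter Agrp transcript, 83 belong to it alone, and it had at most 2 counts in any library. The other transcript starts far upstream, and the gene as annotated spans chromosome 8 from 105566698 to 105637393 and overlaps Ctcf and 6 other annotated genes.

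Cartpt, on chromosome 13 from 99898489 to 99901091, was found in every library. It stood at 6.09 CPM in transgene 2, 6.01 in transgene 4, 5.54 in transgene 5, 5.31 in transgene 1, 3.48 in transgene 6 and 2.79 in transgene 3. The controls ran from 1.23 through a median of 2.31 to 6.23 CPM, and control 11 (6.23) and control 7 (6.17) were the highest libraries of the series. The other 9 controls reached at most 2.88 CPM. Over all libraries Cartpt rose by 0.80 ± 0.32 on the log2 scale with the transgene (edgeR adjusted p = 0.0453). In a fit that also models lane and flow cell the difference was 0.10 and was not called (edgeR adjusted p = 0.868). The call was also lost in 13 of 17 fits that left out a library. It was lost without any of controls 1 to 6 or 8 to 10, or transgene 1, 2, 4 or 5, with the highest adjusted p at 0.0815 without transgene 2. Its 2 rows share 788 bases, and if reads there were set aside as well, its counts rest on the 39 and 450 bases that each row has alone.

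Trh and Crh were highest in controls 7 and 11. Trh, on chromosome 6 from 92242061 to 92244650, stood at 66.7 CPM in control 7 and 40.4 in control 11, with the other 9 controls between 2.94 and 15.7. In the transgene libraries it stood at 20.97 CPM in transgene 1, 19.4 in transgene 4, 13.3 in transgene 5, 12.2 in transgene 6, 8.81 in transgene 2 and 3.69 in transgene 3. Within the transgene group Trh was thus highest in the libraries rich in Avp, whereas Crh was highest in transgene 2. Crh, on chromosome 3 from 19693401 to 19695396, stood at 39.0 CPM in control 7 and 20.3 in control 11, with the other 9 controls between 4.65 and 17.7. Its transgene libraries lay close together, from 7.62 through a median of 9.17 to 10.9 CPM. The groups overlapped for both genes. Neither was called over all libraries: the log2 differences were -0.31 ± 0.58 for Trh (edgeR adjusted p = 0.687) and -0.51 ± 0.38 for Crh (edgeR adjusted p = 0.281). When lane and flow cell were modelled too, Crh was called lower (-1.23, edgeR adjusted p = 0.0447), and Trh differed by -1.52 and was not called (edgeR adjusted p = 0.0615).

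Gal, on chromosome 19 from 3409915 to 3414544, was lower in the transgene libraries. It stood at 3.72 CPM in transgene 1, 2.66 in transgene 6, 2.30 in transgene 5, 2.17 in transgene 4, 0.316 in transgene 3 and 0.292 in transgene 2. The controls ran from 1.39 through a median of 7.07 to 12.5 CPM. Control 3 (1.39) and control 8 (2.01) overlapped the transgene libraries, and the other 9 controls lay above all 6 of them. Gal fell by 1.85 ± 0.49 on the log2 scale (edgeR adjusted p = 0.00457). It was called in all 27 alternative fits over all libraries, with adjusted p from 0.00114 to 0.0249. Markers of other brain regions moved with the same contrast. All 12 Hox genes and all 7 cerebellar granule cell genes were called lower with the transgene (median log2 differences -8.95 and -3.40), and all 12 telencephalic transcription factor genes higher (median 3.19). The granule cell genes summed to 80.8 to 485.1 CPM in transgene libraries and 112.7 to 2634 CPM in controls. The part of these shifts in the Gal difference, or in that of any other gene compared between the groups here, was not tested.

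In all, 5 of the 10 members passed the filter over all libraries, of which Avp and Cartpt were called higher, Gal lower, and Trh and Crh were not called. The background was high: 47.4% of 19136 tested features were called, 23% higher and 24.4% lower. The groups overlapped for all 10 members, while they did not overlap for 14.9% of tested features. In bulk RNA, fewer cells of a type and less RNA per cell cannot be told apart. Per kilobase of exon, the median level in the controls was 8.98 CPM per kilobase for Gal, 7.18 for Crh and 5.74 for Trh, the members of these 5 with a single row and every exon base to themselves beside Avp (0.604). In the transgene libraries these medians were 2.84 for Gal, 6.95 for Crh, 9.23 for Trh and 2.39 for Avp. Gal was divided by the 788 exon bases of the annotated gene. Its row holds 672 of them, so both Gal values are too low for the length counted. Cartpt was left out of this order because the length over which its reads were counted is not known.

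Since all transgene libraries were run on lane 4, the comparison was repeated there, with 6 transgene and 3 control libraries. Of 6 members tested, 1 was called, Gal, which fell by 2.09 ± 0.69 on the log2 scale (edgeR adjusted p = 0.0462), against 25.6% of all tested features. The groups overlapped for all 10 members here too, and did not overlap for 25.3% of tested features. That call was lost in 7 of 9 fits that left out a library, with the exceptions of transgene 1 and control 8, and adjusted p reached 0.184 without control 11. Avp and Oxt differed by 4.89 ± 2.02 and 4.86 ± 1.89 and were not called (edgeR adjusted p = 0.101 and 0.0833), although DESeq2 called both. DESeq2 also called Crh lower (adjusted p = 0.016) and did not call Gal (adjusted p = 0.0601). Trh, Crh and Cartpt differed by -1.54 ± 0.62, -1.25 ± 0.42 and 0.08 ± 0.43 (edgeR adjusted p = 0.0921, 0.0523 and 0.911). The 3 controls of this lane include controls 7 and 11, and without control 8 both Trh (-2.05, edgeR adjusted p = 0.00817) and Crh (-1.72, edgeR adjusted p = 0.000465) were called lower.

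Among controls, lane 8 was compared with lane 4 to see how far the members vary with no transgene. With edgeR 0 of 19384 features were called (0%), while 1543 had an unadjusted p under 0.05 and DESeq2 called 1. The lanes overlapped for all 10 members and did not overlap for 2.62% of features. Trh differed by -2.25 ± 0.61 and Cartpt by -1.18 ± 0.41 on the log2 scale, lower on lane 8, both with an adjusted p = 0.581 by edgeR. Without control 8 both were called lower on lane 8 (edgeR adjusted p = 0.0485 and 0.0449). Lane 4 held controls 7 and 11, and lane and library cannot be told apart here.

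Controls 7 and 11 also stood apart in markers of other regions and of the pituitary. The summed level of 10 pituitary genes was 1036 CPM in control 7 and from 0.0581 to 1.999 CPM in the other controls. All 10 pituitary genes had counts in control 7, led by growth hormone (Gh) with 21416 counts against at most 21 in any other control. Ghrhr, the receptor gene through which GHRH releases growth hormone, had 38 counts in control 7 and 0 in the other 16 libraries. The 12 listed Hox genes, used in the hindbrain and spinal cord, summed to 304.8 CPM in control 11 and 299.7 in control 7, from 16.0 to 215.5 in the other controls and at most 0.633 in transgene libraries. The summed level of 7 granule cell genes was 112.7 CPM in control 7 and 899.5 in control 11, against 1832 to 2634 in the other controls. The part of these other tissues in the Trh and Crh levels was not tested.

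Pairs of members were then compared within each group, over 10 pairs of the 5 genes that passed the filter, so 20 relations with p-values adjusted together. In the controls (n = 11) Trh and Crh rose and fell together, with Pearson r = 0.89 (permutation p = 0.00016, adjusted p = 0.0032) and Spearman rho = 0.89 (permutation p = 0.00053, adjusted p = 0.0053). Without controls 7 and 11, r was 0.72 (permutation test, adjusted p = 0.184). Crh and Gal gave r = 0.81 (permutation p = 0.00225, adjusted p = 0.0225) and rho = 0.94 (permutation p = 8e-05, adjusted p = 0.0016), and r = 0.88 without these libraries (permutation test, adjusted p = 0.006). Trh and Gal were called by rank only, with rho = 0.87 (permutation p = 0.00099, adjusted p = 0.0066) and r = 0.62 (permutation p = 0.037, adjusted p = 0.106), and r = 0.54 without controls 7 and 11 (permutation test, adjusted p = 0.41).

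Cartpt went with Trh (r = 0.78, permutation p = 0.00822, adjusted p = 0.0411) and with Crh (r = 0.79, permutation p = 0.00401, adjusted p = 0.0267) in the controls. Spearman's rho was 0.57 and 0.65 (permutation p = 0.07 and 0.0364, adjusted p = 0.233 and 0.182). Without controls 7 and 11, r fell to 0.05 and 0.43, so both relations rest on those libraries. In the transgene libraries (n = 6) no pair passed the adjustment, and the highest r was 0.84 for Trh and Gal (exact permutation p = 0.0292, adjusted p = 0.0972). Crh and Gal there gave r = -0.54 (exact permutation p = 0.243, adjusted p = 0.304), and the difference between groups was not tested. Avp there gave r = 0.73 with Trh, 0.56 with Gal, 0.53 with Cartpt and -0.12 with Crh (exact permutation test, adjusted p from 0.191 to 0.808). It fell into 2 high and 4 low transgene libraries, too few in each to show a graded relation. In the controls Avp gave r from 0.23 with Gal to 0.57 with Cartpt (permutation test, adjusted p from 0.175 to 0.58).

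**Figure D3:**
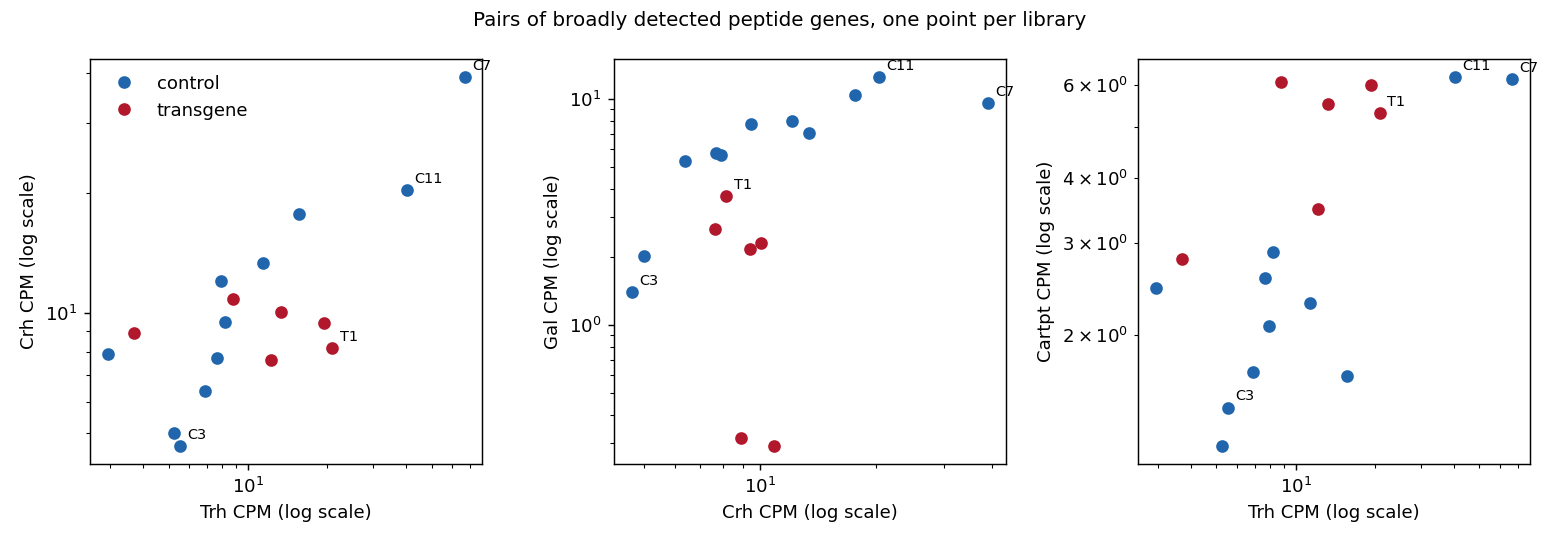
CPM of Crh against Trh, Gal against Crh and Cartpt against Trh, on log scales, with a point per library (controls blue, transgene red). Controls 7 and 11 sit at the upper right in Trh and Crh, and in the panel of Gal against Crh the transgene libraries span 7.62 to 10.9 CPM of Crh, with transgene 2 and transgene 3 at 0.292 and 0.316 CPM of Gal.

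Transcription factor genes of hypothalamic neurons were followed through the same libraries. Sim1, needed for neurons of the paraventricular and supraoptic nuclei, had 26 counts in transgene 1, 23 in transgene 4, at most 1 in the other transgene libraries and at most 2 in any control. It was thus high in the libraries that were high in Avp and Oxt. Otp, which acts with Sim1 but is also used outside the hypothalamus, had 167 counts in transgene 1 and 58 in transgene 4, at most 4 in the other transgene libraries, and 5 to 653 in the controls. Fezf1 had 65 and 29 counts in transgene 1 and transgene 4, at most 10 in the other transgene libraries and at most 8 in any control. Nkx2-4 had 13 counts in transgene 1 and at most 2 in any other library. Other listed factors did not mark transgene 1 and transgene 4 in this way. In transgene 1, 4 and 5, Foxb1 had 60, 5 and 58 counts and Lhx9 53, 4 and 39. Six3 had 41, 32 and 31, Bsx 20, 16 and 17, and Hmx3 6, 10 and 11, with 72 Hmx3 counts in control 7.

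Nkx2-1, an early factor of the ventral hypothalamus and of the ventral telencephalon, followed another pattern. It had 20 counts in transgene 4, 10 in transgene 2, 9 in transgene 1, 7 each in transgene 5 and transgene 6 and 0 in transgene 3. It had 0 counts in all 11 controls, which makes it at least 33.5-fold higher in the transgene group, computed against 3 counts over the group. Six6 had 81 counts in control 7, the library with pituitary RNA, 12 in transgene 1 and at most 6 elsewhere.

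Of the 15 factors in the list, 5 passed the filter over all libraries. Of these 1 was called higher and 1 lower, where 47.4% of all tested features were called. Six3 rose by 2.86 ± 0.57 (edgeR adjusted p = 0.000434) and Hmx3 fell by 2.18 ± 0.82 (edgeR adjusted p = 0.0347), and 3 were not called, among them Otp at -2.01 ± 0.87 (edgeR adjusted p = 0.0654). The median log2 difference of the 5 was -1.05, against -0.05 over all tested features. The summed level of all 15 was 25.7 CPM in transgene 1 and 9.67 in transgene 4, and 44.5 in control 7, where Otp, Foxb1, Six6 and Hmx3 made up most of the counts. The controls ran from 1.28 through a median of 9.28 to 44.5 CPM, so transgene 4 lay close to the control median. Transgene 5 stood at 8.96 CPM. Like sums can hold different factors. Over all controls together Otp had 1837 counts and Foxb1 492, while Fezf1 had 11, Sim1 5 and Nkx2-1 0.

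**Figure D4:**
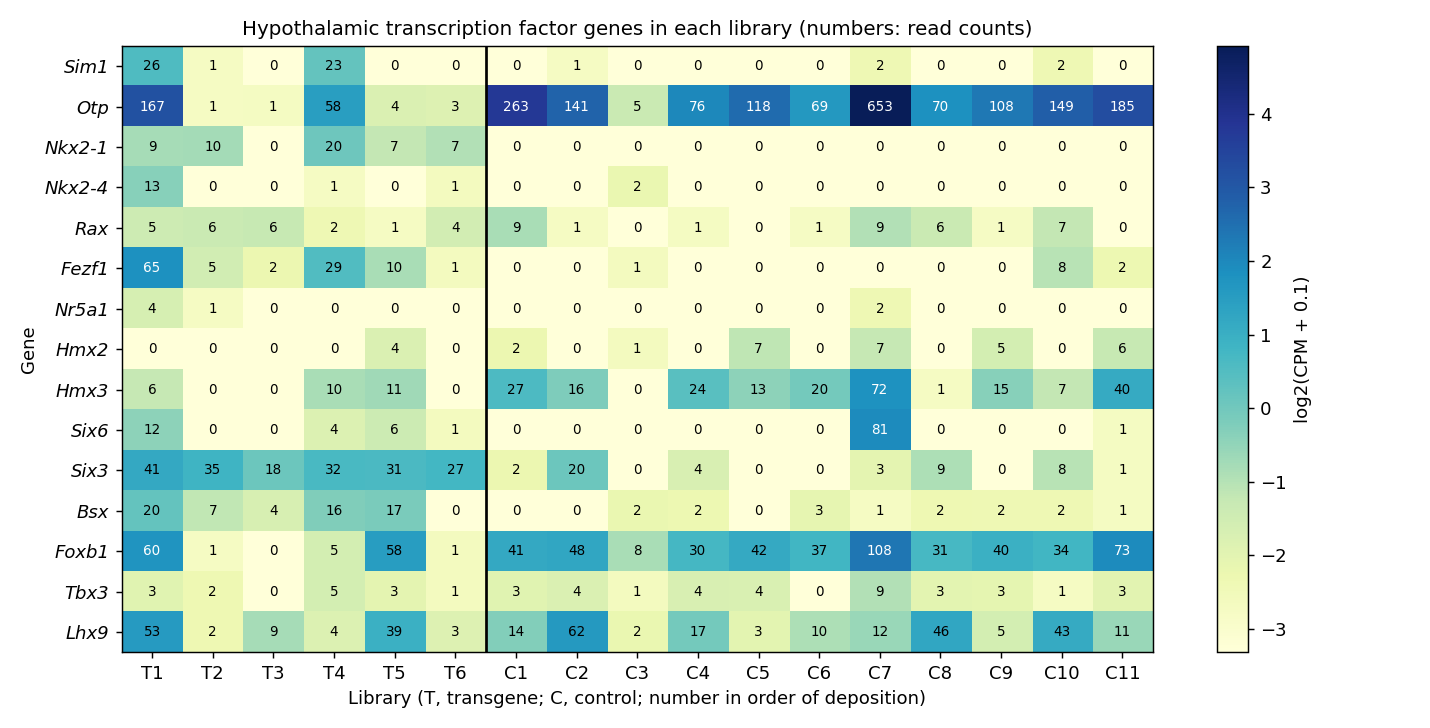
The 15 hypothalamic transcription factor genes (rows) in the 17 libraries (columns), coloured by log2(CPM + 0.1) and labelled with read counts. Sim1 and Fezf1 stand out in transgene 1 and transgene 4, Nkx2-1 has counts in 5 of 6 transgene libraries and in 0 controls, and Otp is high in transgene 1, transgene 4 and most controls.

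Of 17 receptor genes, 14 were tested over all libraries, 4 were called higher and 4 lower, and the median log2 difference was 0.36, against 47.4% called and a median of -0.05 over all tested features. The telencephalic and granule cell genes that moved with this contrast are given with Gal. Mchr1, the receptor for melanin-concentrating hormone, averaged 41.4 CPM (SD 8.29, n = 6) with the transgene against 8.64 CPM (SD 3.93, n = 11) without it. It rose by 2.26 ± 0.25 on the log2 scale (edgeR adjusted p = 1.03e-06). Its ligand gene Pmch was high in 1 of those 6 libraries. Trhr2, a second receptor for TRH, rose by 2.09 ± 0.29, and the oxytocin receptor gene Oxtr by 1.88 ± 0.26 (edgeR adjusted p = 1.31e-05 and 1.25e-05). The main CRH receptor gene Crhr1 fell by 1.19 ± 0.17 (edgeR adjusted p = 1.54e-05) and the orexin receptor gene Hcrtr1 fell by 1.17 ± 0.45 (edgeR adjusted p = 0.0387). Within lane 4, where 3 receptor genes were called higher and 3 lower, these 5 genes were called in the same directions.

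Genes that make or bind the peptides were also read. Of 13, 4 were higher and 1 lower over all libraries (median 0.02 on the log2 scale), a lower share than the 47.4% of all tested features. Pcsk2, a convertase that cuts peptide precursors, rose by 1.36 ± 0.12 (edgeR adjusted p = 1.75e-07), and Cpe, which trims the cut ends, by 0.96 ± 0.12 (edgeR adjusted p = 2.89e-06). The convertase gene Pcsk1 rose by 0.40 ± 0.11 and the granule protein gene Scg3 fell by 0.27 ± 0.09 (edgeR adjusted p = 0.00561 and 0.0206). Crhbp, which encodes a protein that binds CRH, rose by 1.66 ± 0.29 (edgeR adjusted p = 0.000127), while Crh itself was not called.

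Of 18 other peptide genes used in the hypothalamus and elsewhere, 12 were tested, 8 were called higher and 1 lower, with a median log2 difference of 1.64. Over all tested features 23% were called higher and 24.4% lower, with a median of -0.05. Prodynorphin (Pdyn), which magnocellular vasopressin neurons and striatal neurons also make, rose by 2.42 ± 0.25 (edgeR adjusted p = 6.18e-07). It had 1123 counts in transgene 1, 2401 in transgene 4 and 2348 in transgene 2, so it did not follow Avp. Npy, Grp and Vip rose by 2.24 ± 0.26, 2.07 ± 0.42 and 1.99 ± 0.41 (edgeR adjusted p = 2.25e-06, 0.00051 and 0.000563). Nmu, the neuromedin U gene, fell by 4.83 ± 1.02 (edgeR adjusted p = 0.000694) and had 3 counts in transgene 5 and 0 in the other transgene libraries. Telencephalic markers moved with these genes: 12 of 12 telencephalic transcription factor genes were called higher, their summed level was 581.2 to 913.1 CPM in transgene and 14.1 to 309.9 in control libraries, and their part in these rises was not tested.

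The tested genes with the pattern most like each confined peptide were found from log2 CPM after the group means were subtracted, over 17 libraries and 17589 tested genes, as a description. Nearest to Avp was Iqce (r = 0.86, and 0.53 over the 11 controls alone), and nearest to Oxt was Ubap1l (r = 0.90 and 0.73). Nearest to Hcrt was Nr2f2 (r = 0.78 and -0.09), and nearest to Pmch was Evx1 (r = 0.85 and 0.91). The peptides' libraries were not always the highest for these genes. Iqce had 22.4 CPM in transgene 1, 24.6 in transgene 4 and at most 18.7 elsewhere, and Nr2f2 had 56.1 CPM in transgene 1, 28.8 in transgene 4 and at most 35.2 elsewhere. Ubap1l had 8.50 and 4.67 CPM in transgene 1 and transgene 4 and up to 17.9 elsewhere, and Evx1 had 0.265 and 0 CPM there and up to 6.12 elsewhere. Sim1 and the members Oxt, Hcrt, Pmch, Agrp and Ghrh did not pass the filter and so were not among the genes searched. The search could therefore not return Oxt for Avp, or Hcrt and Pmch for each other.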

How the data were processed

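RNA of mouse brain was sequenced in 17 libraries. The authors deposited raw counts per transcript (68512 rows and 5 closing rows that name no feature), aligned to mm10 per the submitters' processing notes. For the aligner, the counting program, the strand setting and the annotation, no value is given in the sources used here. Between 40.2% and 43.4% of each library's reads were ambiguous between features, 5.29% to 11.1% lay outside any feature, and both were left out of library sizes. Genes whose transcripts overlap are undercounted for that reason. Pmch shares 435 of its 749 exon bases with Parpbp on the other strand, so reads there cannot be told apart without a strand setting.

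Rows were matched without version to GENCODE M21 (64380 matched, 125 not) and summed to genes, while 4007 assembled loci stayed features of their own. Tests used edgeR 4.0.16 in R 4.3.3 (quasi-likelihood F test, TMM, the default expression filter), with Benjamini-Hochberg adjustment over all tested features and a threshold of 0.05. A gene is called when it passes this threshold. Differences are on the log2 scale, positive where the transgene group is higher, and the SE was derived from the F statistic. Log2 CPM used a prior count of 2. DESeq2 1.42.0 and limma-voom (limma 3.58.1) were alternatives. Correlations used 100000 resamples for controls and all orders for transgene libraries, two-sided. The procedure was tested on simulated counts. No pair of libraries of a group agreed within counting noise (chi-square per gene at least 9.61 over 55 control and 13.2 over 15 transgene pairs).

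The members, gene lists and some alternatives were chosen with earlier results of these data known. All 10 members are named. Of the lists of receptors, processing genes, transcription factors and other peptides, up to 5 called genes with the largest difference are named, plus Sim1, Otp and Nkx2-1. The other factors named, Ghrhr, Gh and the per-library counts of Pdyn were chosen after their values were seen, as was the fit with no filter and without transgene 1 or transgene 4. Intervals and floors (3 counts) cover counting error only.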

Additional observations from a re-analysis of the deposited data

Results flagged for a closer look

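In the 6 transgene libraries, transgene 1 lay far from the others in Hcrt (10.1 CPM, next 0.195) and in Pmch (30.1 CPM, next 0.316). The gap to the next library, divided by the range of the group, was 0.985 for Hcrt and 0.989 for Pmch, above the limit of 0.625 for 6 libraries. The groups of library values looked at numbered 20 (each of 10 genes, once with the transgene and once in controls from lane 8). Of these, 2 stood apart this way, Hcrt and Pmch with the transgene. Avp and Oxt, with 2 high libraries each, did not. Chance gives about 1 in 20 if values are normal and the groups independent. CPM values here are skewed and both flags come from transgene 1, so that rate may not hold. The full group of 11 controls was too large to be looked at this way.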

How the results depend on the processing

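Over all libraries 3 members were called, 2 to 3 when any library was left out, 6 with no filter on low counts (Avp, Oxt, Hcrt, Pmch and Cartpt higher, Gal lower) and 1 without transgene 1 and transgene 4. Scaling by library size only, a filter of 1 CPM or limma-voom left 1 member called higher instead of 2. That member was Avp with library size only and Cartpt with the other settings. Under the filter of 1 CPM, Avp was not tested. When lane and flow cell were added as a factor (1 member higher, 2 lower), 5887 features were called instead of 9078, Cartpt was not called (log2 difference 0.10) and Crh was (-1.23). With limma-voom Avp was at 4.09 and not called (adjusted p = 0.0549). The Trh difference of -0.31 turned to 0.15 with limma-voom and to 0.43 without control 7 and transgene 3, and ran from -0.46 to 0.24 when a library was left out, positive without control 7. Within lane 4, where 1 member was called, 2 were called with scaling by library size only and with no filter, 3 with DESeq2 (Avp, Oxt and Crh, not Gal), and 0 with limma-voom, with robust edgeR, without control 7 and transgene 3, and without transgene 1 and transgene 4. Leaving out a library gave 0 to 3. The lane 4 Cartpt difference of 0.08 was -0.036 without transgene 1 and transgene 4 and ran from -0.36 to 0.39 when a library was left out. Among controls by lane, DESeq2 called 1 feature, and leaving out a library gave 0 to 88 features and 0 to 2 members, the highest values without control 8. The Gal difference there ran from -0.84 to 0.11. Pairs of members passing the adjustment numbered 4, and 2 when the 2 libraries farthest from the median were left out: Crh with Gal, which was among the 4, and Avp with Cartpt, which was not. The cause of these changes was not tested. No paired analysis was possible because the labels give no replicate numbers shared by the groups. Low counts limit what can be said of Hcrt outside transgene 1 (0 to 5 per library), Agrp (3 to 14) and Ghrh (0 to 7).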

Other observations

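By a rule chosen after the data were seen, features were picked that had at least 20 counts in a library and at least 5 times the CPM of every other library. Transgene 1 had 4 such features, and 2 of them were Pmch and Hcrt. The others were Slc6a3, the dopamine transporter gene of midbrain dopamine neurons, with 563 counts in transgene 1 and at most 59 elsewhere, and Abhd12b, with 25 counts. With transgene 1 and transgene 4 both required to stand 5 times above the other 15 libraries, 3 features were found: Avp, Oxt and Sim1. Transgene 4 alone had 1, Reg3g, with 29 counts. The same rule found 44 features in control 11, 15 in control 7, 6 in transgene 6, 1 in control 6 and 0 in the other 11 libraries.

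The 10 listed markers of the thalamus and habenula, which lie above the hypothalamus, did not share a direction. Of 9 tested over all libraries, 3 were called higher and 2 lower (edgeR), with a median log2 difference of 0.04. Of all tested features 47.4% were called. Their summed level was 237 to 375.9 CPM in transgene and 367.1 to 717.4 CPM in control libraries, lowest in transgene 4. Rora (90033 counts over all libraries) and Calb2 (58765) dominated this sum, with Nwd2 next at 13387. The mean log2 CPM of the 10 genes was instead highest in transgene 1 (3.07) and transgene 5 (2.93) and lowest in transgene 3 (1.01).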
